A study of Mus musculus with 12 samples.

Results

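Lipases and lipolysis cofactors were followed in 3T3-L1, a mouse preadipocyte line that stores fat after hormonal induction, through 9 genes named by symbol: Pnpla2, Pnpla3, Lipe, Mgll, Abhd5, Abhd6, G0s2, Ces1d and Ces1f. All 9 had a row among the 54532 genes of the count table, and all 9 were among the 14855 genes that passed a low-count filter. Bulk RNA was sequenced in 12 libraries taken on day 6, 3 in each of 4 groups, all labelled wild type. The luteolin group received the DMI cocktail with luteolin, the quercetin group received DMI with quercetin, the DMI group received the cocktail alone, and the untreated group, titled NC, is labelled as having received none of these. DMI stands for dexamethasone (1 uM), 3-isobutyl-1-methylxanthine or IBMX (0.5 mM) and insulin (10 ug/ml), which were given to confluent cells until day 2 and followed by insulin and then by serum-containing medium. Luteolin and quercetin are plant flavonoids, and quercetin carries a hydroxyl group on its central ring that luteolin lacks. The labels give neither the dose of a flavonoid nor when it was added, so the values of the compounds are given side by side without matched doses. The study asked how these compounds affect adipose differentiation. The cells are an established line, not fat tissue, and nothing says that replicates were separate cultures, so p-values measure only the spread between these libraries.

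Adipocytes release stored fat by cutting triacylglycerol in steps, each freeing a fatty acid. Adipose triglyceride lipase, encoded by Pnpla2, makes the opening cut and is activated by the protein of Abhd5 (CGI-58) and inhibited by that of G0s2. Hormone-sensitive lipase (Lipe) then acts on diacylglycerol, and monoacylglycerol lipase (Mgll) on the monoacylglycerol that remains, a substrate that the Abhd6 protein also cuts. Pnpla3 encodes a relative of Pnpla2 on lipid droplets, and Ces1d and Ces1f encode carboxylesterases known for triacylglycerol hydrolysis in mouse liver and fat.

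The promoters of Pnpla2, the most abundant member, and of Mgll, Pnpla3 and G0s2, the members that fell with quercetin, are printed as the 250 bases upstream of a RefSeq start on GRCm38.p6, 5′ to 3′ on the strand of the gene. RefSeq promoters were matched for 7 of the 9 members. Capitals mark GGGCGG (a GC box), CACGTG (an E-box) and TGACGTCA (a cAMP response element), searched on both strands. The windows are chr7:141454938-141455187 on the + strand for Pnpla2, chr6:88724162-88724411 on the + strand for Mgll, chr15:84167566-84167815 on the + strand for Pnpla3 and chr1:193273189-193273438 on the - strand for G0s2.
Pnpla2: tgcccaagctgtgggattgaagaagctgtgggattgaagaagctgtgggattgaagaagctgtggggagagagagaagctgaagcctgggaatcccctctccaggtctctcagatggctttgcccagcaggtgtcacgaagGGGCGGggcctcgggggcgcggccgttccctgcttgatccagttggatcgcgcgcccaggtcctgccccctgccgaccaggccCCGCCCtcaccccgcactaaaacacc
Mgll: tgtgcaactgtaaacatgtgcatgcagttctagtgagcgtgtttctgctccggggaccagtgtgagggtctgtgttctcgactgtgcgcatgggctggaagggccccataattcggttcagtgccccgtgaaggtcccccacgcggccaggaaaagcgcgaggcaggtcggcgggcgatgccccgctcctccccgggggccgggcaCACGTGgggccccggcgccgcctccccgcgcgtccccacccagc
Pnpla3: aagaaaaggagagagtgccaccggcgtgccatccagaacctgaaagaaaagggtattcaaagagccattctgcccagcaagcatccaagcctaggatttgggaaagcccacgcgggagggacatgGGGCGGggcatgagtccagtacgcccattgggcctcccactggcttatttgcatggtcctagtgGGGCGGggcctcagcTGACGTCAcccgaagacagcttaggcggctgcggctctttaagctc
G0s2: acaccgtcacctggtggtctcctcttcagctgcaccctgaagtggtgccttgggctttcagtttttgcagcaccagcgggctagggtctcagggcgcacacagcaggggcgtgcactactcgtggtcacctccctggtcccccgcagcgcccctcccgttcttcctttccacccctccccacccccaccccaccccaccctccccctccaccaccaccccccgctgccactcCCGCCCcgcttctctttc
These windows are rich in G and C, at 63.2% for Pnpla2, 68.0% for Mgll, 58.4% for Pnpla3 and 67.2% for G0s2. The palindrome TGACGTCA was in the Pnpla3 window, 46 bases upstream of the start, and in no other member with a promoter, while 1.55% of 32851 mouse promoter windows of the same length hold it. The palindrome CACGTG was in the promoters of Mgll, 44 bases upstream, and Lipe, against 6.02% of all windows, and the forkhead motif TGTTTAC was in the same pair of genes, against 3.17%. GGGCGG was in a promoter of all 7 matched members, for Mgll only at its second start, against 32.7% of all windows. The nuclear receptor motif AGGTCA was in the promoter of Abhd5 (14% of all windows) and CCAAT in those of Abhd6 and Pnpla3 (33.8%). The direct repeat DR1, made of AGGTCA at a spacing of 1 base (0.0335% of all windows), the C/EBP motif TTNNGCAA (9.56%) and TATAAA (12.4%) were found in none. The 7 matched members had 10 windows in all, with more than 1 for Mgll, Lipe and Abhd6. The Lipe starts lie 2723 and 8598 bases inside the gene as annotated, so no window covers its outermost 5′ end. A member is counted if any of its windows holds the motif, whereas the shares of all windows are per single window. A match is a run of letters and not a known binding site.

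Pnpla2 (ENSMUSG00000025509, GRCm38 chromosome 7, 141455198 to 141460743, + strand) was the most abundant member per length in every group. Its levels, in CPM (counts relative to the scaled total of the library), were 871, 938 and 316 in luteolin replicates 1, 2 and 3, 519.8, 508 and 115 in quercetin, 1594, 1804 and 427 in DMI, and 38.4, 40.6 and 41.4 in untreated libraries. Every induced library, with or without a flavonoid, lay above every untreated library. Replicate 3 was the lowest of its group with luteolin, quercetin and DMI, and the ranges of these groups overlapped. Over untreated cells Pnpla2 was 31.8-fold higher with DMI (log2 fold change 4.99, SE 0.68, adjusted p = 0.00051, edgeR's quasi-likelihood test with Benjamini-Hochberg adjustment over all genes tested). Against DMI, its log2 fold change was -0.85 (SE 0.58, adjusted p = 0.938) with luteolin and -1.74 (SE 0.59, adjusted p = 0.130) with quercetin, neither past the threshold of 0.05.

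The low replicate 3 recurred across the members. It held the lowest value for 8 of 9 members in the luteolin group and 8 of 9 in the quercetin group, Abhd6 being the exception in both, and for 9 of 9 in the DMI group. In untreated libraries it was the lowest for 0 of 9. The summed level of 8 adipocyte markers moved the same way, at 4890.4, 5841 and 2052 CPM in luteolin replicates 1 to 3, 3062, 3074 and 561 CPM in quercetin, 9360.1, 11940.4 and 2629 CPM in DMI, and 1.55 to 15.3 CPM in untreated libraries, where 2 of the 8 were at 0. The 6 preadipocyte markers summed to 1953 to 3195 CPM with luteolin, 3186 to 4565 CPM with quercetin, 2404 to 4224 CPM with DMI and 7918 to 8232 CPM in untreated libraries. Markers of macrophages, endothelium, epithelium and hepatocytes summed to at most 3.06, 0.559, 0.493 and 0.273 CPM in any library. The part of the adipocyte and preadipocyte markers in the differences between members' levels was not tested, but the members are given per marker level among the results. In bulk RNA, fewer fat-storing cells and less lipase RNA per cell cannot be told apart. Total counts ran from 14522182 to 19436796 per library.

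**Figure D1:**
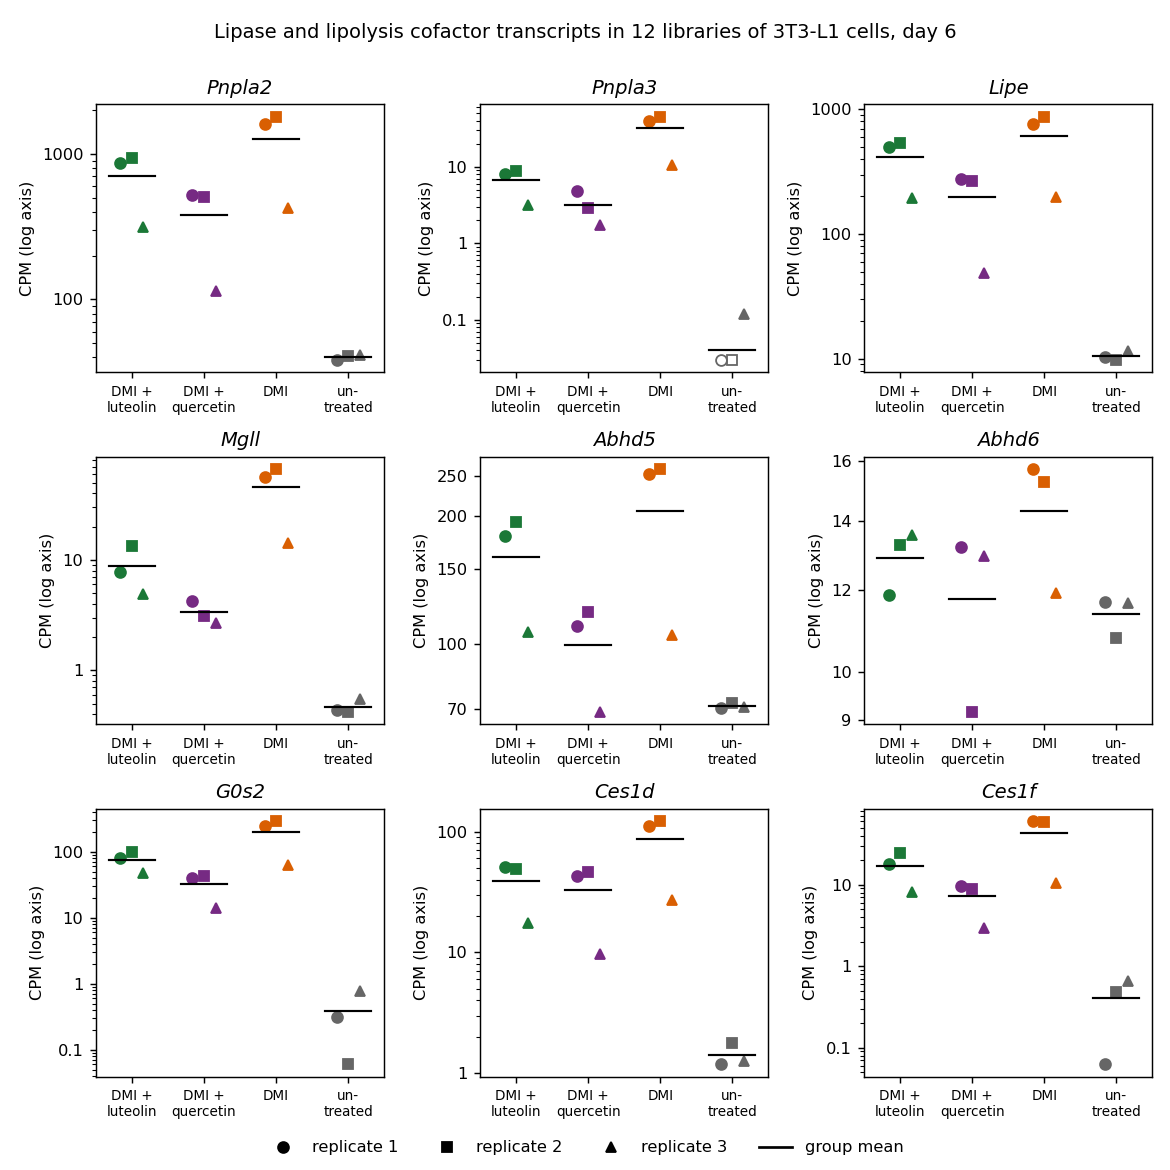
CPM of the 9 members in each library, on a log axis, with luteolin, quercetin, DMI and untreated groups from left to right; circle, square and triangle are replicates 1, 2 and 3, and the line is the group mean. Open symbols at the bottom stand for the 2 untreated libraries with 0 Pnpla3 counts, and the triangle is the lowest DMI point for 9 of 9 members.

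Abhd5 (ENSMUSG00000032540, chromosome 9, 122351608 to 122381524, + strand), whose protein activates the Pnpla2 lipase, was already present without induction. It had 180.2, 194 and 107 CPM with luteolin, 109.9, 119 and 68.8 CPM with quercetin, 253, 259 and 105 CPM with DMI, and 70.6, 72.2 and 70.6 CPM in untreated cells. Quercetin replicate 3 lay below the untreated libraries, while all luteolin and DMI libraries lay above them. The rise over untreated cells was 2.89-fold with DMI (log2 1.53, SE 0.32, adjusted p = 0.00531 by edgeR) and 2.25-fold with luteolin (log2 1.17, SE 0.32, adjusted p = 0.0240). With quercetin the log2 difference from untreated cells was 0.48 (95% interval -0.21 to 1.17, adjusted p = 0.380), and 0.75 (adjusted p = 1.77e-06) without the 3 induced libraries numbered 3. The latter fit called 40.4% of all genes in that comparison. Against DMI, Abhd5 gave -0.36 (adjusted p = 0.987) with luteolin and -1.05 (95% interval -1.75 to -0.36, adjusted p = 0.106) with quercetin.

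G0s2 (ENSMUSG00000009633, chromosome 1, 193272161 to 193273217, - strand), whose protein inhibits the Pnpla2 lipase, was near 0 without induction. It had 80.4, 100.2 and 47.0 CPM with luteolin, 39.3, 43.1 and 14.1 CPM with quercetin, 249, 290.1 and 62.4 CPM with DMI, and 0.311, 0.0596 and 0.786 CPM in untreated cells. All quercetin libraries were below all DMI and all luteolin libraries, whereas luteolin replicates 1 and 2 fell within the range of the DMI group. With quercetin G0s2 fell to 32.2 ± 15.8 CPM, against 201 ± 121 CPM with DMI (SD, n = 3 each), a 6.22-fold difference (log2 -2.64, SE 0.56, adjusted p = 0.0492 by edgeR). That value is close to the threshold, and scaling by library totals alone gave an adjusted p of 0.0531. With luteolin the log2 fold change against DMI was -1.40 (SE 0.53, adjusted p = 0.732).

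The balance between Pnpla2 and its cofactors was compared within each library as ratios of the authors' FPKM values, which correct for length and depth. The ratio of G0s2 to Pnpla2 was 0.320, 0.370 and 0.516 with luteolin, 0.262, 0.294 and 0.427 with quercetin, 0.543, 0.558 and 0.507 with DMI, and 0.0281, 0.00510 and 0.0658 in untreated cells. The 3 quercetin ratios were below the 3 DMI ratios, and luteolin replicate 3 lay inside the DMI range. On the log2 scale of CPM with a prior count of 2, the ratio differed from DMI by -0.74 with quercetin (exact two-sided permutation p = 0.1, the smallest 3 against 3 libraries can give) and by -0.44 with luteolin (exact permutation p = 0.2).

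The same ratio for Abhd5 was highest without induction. Its FPKM ratio to Pnpla2 was 0.105, 0.105 and 0.171 with luteolin, 0.107, 0.118 and 0.304 with quercetin, 0.0804, 0.0729 and 0.124 with DMI, and 0.931, 0.903 and 0.865 in untreated cells. The untreated ratios stood above all induced ones, a log2 difference of -3.32 for DMI against untreated (exact permutation p = 0.1), and the induced groups overlapped. Against DMI the log2 ratio was 0.46 higher with luteolin and 0.80 higher with quercetin (exact permutation p = 0.3 each). Mgll, the lipase at the other end of the pathway, had FPKM ratios to Pnpla2 of 0.00529, 0.00852 and 0.00927 with luteolin, 0.00487, 0.00361 and 0.0140 with quercetin, 0.0210, 0.0220 and 0.0197 with DMI, and 0.00674, 0.00612 and 0.00782 in untreated cells. Both flavonoid groups lay wholly below DMI, by -1.47 with luteolin and -1.69 with quercetin on the log2 scale (exact permutation p = 0.1 each). With the flavonoid libraries pooled, the differences were -1.58 for Mgll (exact permutation p = 0.0238), -0.59 for G0s2 (exact permutation p = 0.0476) and 0.63 for Abhd5 (exact permutation p = 0.119), and after Benjamini-Hochberg adjustment over all 21 ratio tests the Mgll and G0s2 values were each 0.175. No ratio test could have passed 0.05 after this adjustment, since the smallest adjusted value that these group sizes allow is 0.1.

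**Figure D2:**
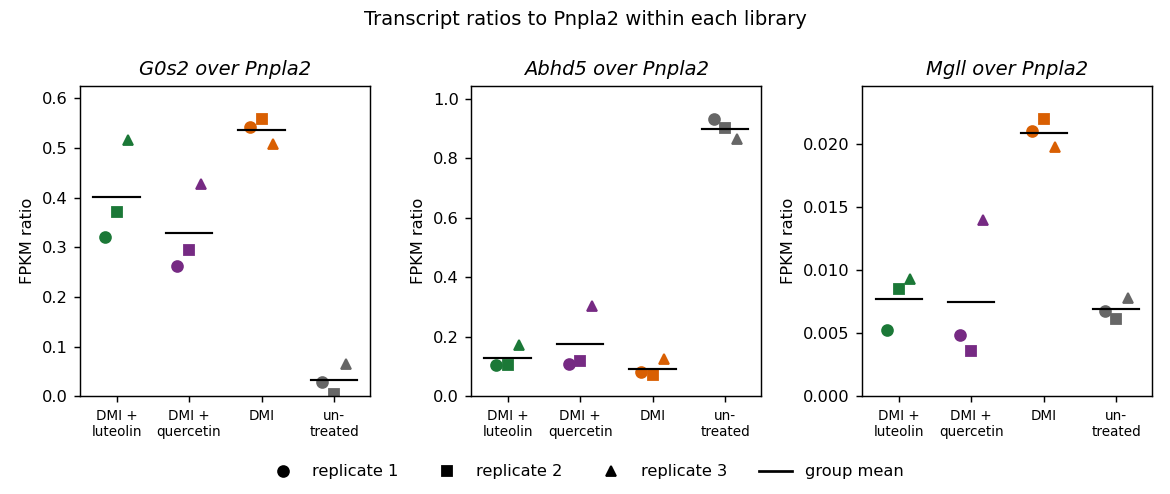
Ratio of FPKM of G0s2, Abhd5 and Mgll to that of Pnpla2 in each library, on linear axes from 0, with luteolin, quercetin, DMI and untreated groups from left to right and a line at the group mean. Mgll ratios with either flavonoid, 0.00361 to 0.0140, sit below the DMI ratios of 0.0197 to 0.0220, and Abhd5 ratios are highest in untreated libraries.

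Lipe (ENSMUSG00000003123, chromosome 7, 25379527 to 25398710, - strand), hormone-sensitive lipase, had 503, 537 and 194 CPM with luteolin, 274, 267 and 49.0 CPM with quercetin, 758, 874 and 199.7 CPM with DMI, and 10.3, 9.78 and 11.4 CPM in untreated cells. The pattern was that of Pnpla2, with replicate 3 low in each induced group and overlap among them. The rise over untreated cells was 58.2-fold with DMI (log2 5.86, SE 0.75, adjusted p = 0.000337), 39.2-fold with luteolin (adjusted p = 0.000673) and 18.8-fold with quercetin (adjusted p = 0.00345). Against DMI the log2 fold changes were -0.57 with luteolin (95% interval -1.87 to 0.73, adjusted p = 0.995) and -1.63 with quercetin (95% interval -2.96 to -0.30, adjusted p = 0.157).

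Mgll (ENSMUSG00000033174, chromosome 6, 88724412 to 88828360, + strand) differed most from DMI with either flavonoid. It had 7.74, 13.4 and 4.92 CPM with luteolin, 4.26, 3.08 and 2.70 CPM with quercetin, 56.3, 66.6 and 14.2 CPM with DMI, and 0.435, 0.418 and 0.544 CPM in untreated cells. The 4 groups did not overlap for this gene, in the order DMI, luteolin, quercetin, untreated. Mgll averaged 3.35 ± 0.811 CPM with quercetin and 45.7 ± 27.8 CPM with DMI (SD, n = 3 each), a fall of 13.6-fold (log2 -3.76, SE 0.52, adjusted p = 0.0246 by edgeR). With luteolin it averaged 8.71 ± 4.34 CPM, a log2 fold change of -2.39 (SE 0.48, 95% interval -3.42 to -1.35) that did not pass (adjusted p = 0.329 by edgeR).

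Abhd6 (ENSMUSG00000025277, chromosome 14, 8002902 to 8056763, + strand), which encodes the other monoacylglycerol hydrolase, showed no change past the threshold in any comparison. It had 11.9, 13.3 and 13.6 CPM with luteolin, 13.2, 9.15 and 12.9 CPM with quercetin, 15.7, 15.3 and 11.9 CPM with DMI, and 11.7, 10.8 and 11.7 CPM in untreated cells. DMI libraries were above untreated ones only narrowly, and the log2 fold change of 0.33 had a 95% interval from -0.04 to 0.70 (adjusted p = 0.172 by edgeR). Against DMI the intervals ran from -0.52 to 0.22 with luteolin and from -0.65 to 0.09 with quercetin. Without the 3 induced libraries numbered 3, Abhd6 was higher with DMI than in untreated cells by 0.49 on the log2 scale (adjusted p = 0.0149 by edgeR). In that fit 52.8% of all genes passed in the same comparison.

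Pnpla3 (ENSMUSG00000041653, chromosome 15, 84167837 to 84187236, + strand) had 8.03, 8.85 and 3.19 CPM with luteolin, 4.91, 2.93 and 1.72 CPM with quercetin, 39.4, 45.5 and 10.5 CPM with DMI, and 0, 0 and 0.121 CPM in untreated cells. Every flavonoid library was below every DMI library, and luteolin and quercetin overlapped. With quercetin Pnpla3 fell to 3.19 ± 1.61 CPM, against 31.8 ± 18.7 CPM with DMI (SD, n = 3 each), or 9.91-fold (log2 -3.31, SE 0.56, adjusted p = 0.0408 by edgeR). With luteolin it averaged 6.69 ± 3.06 CPM (log2 -2.24, SE 0.53, 95% interval -3.39 to -1.09), which did not pass (adjusted p = 0.400 by edgeR). The untreated group held 2 Pnpla3 counts in all, against 336 with luteolin, 176 with quercetin and 1461 with DMI. Per depth, the ratio to untreated was 169 with luteolin (95% counting interval 46.4 to 1400), 79.9 with quercetin (21.8 to 665) and 772 with DMI (213 to 6382), and such intervals cover counting error only.

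Ces1d (ENSMUSG00000056973, chromosome 8, 93166068 to 93197838, - strand) had 50.5, 49.4 and 17.4 CPM with luteolin, 42.8, 45.8 and 9.76 CPM with quercetin, 110.2, 122 and 27.1 CPM with DMI, and 1.18, 1.79 and 1.27 CPM in untreated cells. Its paralog Ces1f (ENSMUSG00000031725, chromosome 8, 93256236 to 93279747, - strand) had 18.1, 24.1 and 8.19 CPM with luteolin, 9.66, 8.85 and 2.95 CPM with quercetin, 59.96, 59.1 and 10.5 CPM with DMI, and 0.0622, 0.477 and 0.665 CPM in untreated cells. Quercetin libraries were below all DMI libraries for Ces1f but not for Ces1d. Over untreated cells Ces1d was 60.7-fold (adjusted p = 0.000383) and Ces1f 105-fold higher with DMI (adjusted p = 0.000359 by edgeR). Against DMI, quercetin gave log2 fold changes of -1.39 for Ces1d (SE 0.59, adjusted p = 0.201) and -2.58 for Ces1f (SE 0.63, adjusted p = 0.0646), and luteolin -1.14 (adjusted p = 0.856) and -1.36 (adjusted p = 0.812). The carboxylesterase genes are related copies, and Ces1d shares 4 of its 50-base words with Ces1f, 17 with Ces1b and 8 with Ces1g, at most 0.734% of the Ces1d words. Over all libraries Ces1g had 137 counts and Ces1b 4. Another copy, Ces1a, had 5475 counts but shares 0 such words with Ces1d and 0 with Ces1f.

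Ordered by mean FPKM, DMI cells held Pnpla2 at 422, G0s2 at 230.5, Lipe at 104, Ces1d at 36.5, Abhd5 at 34.5, Pnpla3 at 20.6, Ces1f at 13.1, Mgll at 9.002 and Abhd6 at 6.07. Each neighbouring pair in that order overlapped across the 3 DMI libraries, with replicate 3 low throughout, although within each library Pnpla2 exceeded G0s2 and G0s2 exceeded Lipe. Luteolin cells began with the same 3 genes, Pnpla2 at 234, G0s2 at 87.1 and Lipe at 69.8 FPKM, and continued with Abhd5 at 26.9, Ces1d at 16.5, Abhd6 at 5.46, Ces1f at 5.11, Pnpla3 at 4.32 and Mgll at 1.71. Among its neighbours Lipe lay above Abhd5 and Ces1d above Abhd6 without overlap. Quercetin cells had Pnpla2 at 125, G0s2 at 36.6, Lipe at 33.1, Abhd5 at 16.5, Ces1d at 13.7, Abhd6 at 4.95, Ces1f at 2.16, Pnpla3 at 2.05 and Mgll at 0.655 FPKM, where only Abhd6 over Ces1f and Pnpla3 over Mgll did not overlap. Untreated cells had another order, with Pnpla2 at 12.9, Abhd5 at 11.6, Abhd6 at 4.68, Lipe at 1.73 and Ces1d at 0.580 FPKM, no 2 of them overlapping. These were followed by G0s2 at 0.430, Ces1f at 0.119, Mgll at 0.0892 and Pnpla3 at 0.0253. Mgll was thus last of the 9 per length with either flavonoid and second to last with DMI.

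Taking the comparisons as wholes, DMI raised 8 of 9 members over untreated cells, Abhd6 being the exception, where 27.1% of all genes tested changed in either direction and 14.7% rose. Luteolin with DMI raised the same 8 members (19.3% of all genes changed, 10.5% rose) and quercetin with DMI raised 7, without Abhd5 and Abhd6 (9.45% changed, 4.79% rose). The groups did not overlap for 9, 9 and 7 of 9 members, against 52.1%, 53.8% and 31.2% of all genes, with 22.7%, 25% and 14.8% higher. Pnpla3 and Mgll reached 10 counts in 0 of 3 untreated libraries, and G0s2 and Ces1f in 1 of 3. The filter asks for 3 libraries, so all of these members needed the induced libraries, where they are high, to enter the test. Their rises over untreated cells are thus not independent of the filter. Fold changes over untreated cells with luteolin were 194 for G0s2, 40.9 for Ces1f, 27.5 for Ces1d, 18.5 for Mgll and 17.7 for Pnpla2. With quercetin they were 82.2 for G0s2, 23.1 for Ces1d, 17.5 for Ces1f, 9.49 for Pnpla2 and 7.10 for Mgll (largest adjusted p = 0.0226, for Mgll, by edgeR).

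Luteolin against DMI gave fold changes below 0 on the log2 scale for 9 of 9 members, with a median of -1.14 against -0.02 over all genes, and changed 0 of 9 past the threshold by edgeR. All genes gave 0.0202%. An unadjusted p under 0.05 was found for 4 of 9 members and 6.09% of all genes. DESeq2 called 1 member, Mgll, against 0.323% of all genes. Luteolin and DMI libraries did not overlap for 2 of 9 members, Mgll and Pnpla3, where 11.5% of all genes did not overlap and 5.24% were lower. With a block for the replicate number, the luteolin libraries gave -2.28 for Mgll (adjusted p = 0.0204) and -2.16 for Pnpla3 (adjusted p = 0.0168 by edgeR), so that 2 of 9 members fell, against 0.168% of all genes, 0.141% being lower. That block was fitted over all 12 libraries, although the numbers were taken as a pairing only between luteolin and DMI. Whether same-numbered libraries of these groups were truly paired is not known, so the block fits are conditional on that choice. With the block on the 6 libraries of these groups alone, 7 of 9 members fell, all but Abhd5 and Abhd6, against 6.58% of all genes, 4.41% being lower. The same 7 were lower with luteolin in 3 of 3 same-numbered pairs, and Abhd5 and Abhd6 in 2 of 3. Without the 3 induced libraries numbered 3, 8 of 9 members fell with luteolin, all but Abhd6, against 10.4% of all genes, 6.23% being lower. The falls ranged from -0.43 for Abhd5 (adjusted p = 0.0031) to -2.51 for Mgll (adjusted p = 1.31e-05) with 2 libraries left in each induced group, a choice that by construction narrows the spread.

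Quercetin against DMI lowered 3 of 9 members, Mgll, Pnpla3 and G0s2, where 1.01% of all genes changed and 0.848% fell. All 9 fold changes were below 0 on the log2 scale, with a median of -1.74 against 0.02 over all genes. The groups did not overlap for 4 of 9 members, these 3 and Ces1f, against 14% of all genes, 7.35% being lower. The count was 0 without DMI replicate 1, DMI replicate 2, quercetin replicate 2 or quercetin replicate 3, and 1, Mgll, without luteolin replicate 1 or 2 or any untreated library. It was 8 without DMI replicate 3, against 17.4% of all genes, 10.2% being lower. It was also 8 without the 3 induced libraries numbered 3, against 33.4%, 16.4% being lower. The fit takes its spread from all 12 libraries, the untreated ones included. With only the quercetin and DMI libraries fitted, 0 of 9 members and 0% of all genes passed. Voom also called 0 members (0.00673% of all genes), whereas DESeq2 called 5 (6.75%) and edgeR with the replicate block 8 (9.39%). When the flavonoid libraries were pooled, Mgll fell by 3.08 on the log2 scale (SE 0.39, adjusted p = 0.0112) and Pnpla3 fell by 2.77 (SE 0.43, adjusted p = 0.0266 by edgeR). These were 2 of 9 members, against 0.653% of all genes changed and 0.599% lower. The same 2 were the members whose 6 flavonoid libraries all lay below the 3 DMI libraries, against 3.73% of all genes, 1.76% being lower. G0s2 at -2.02 (adjusted p = 0.0585) did not pass in the pooled comparison. The flavonoid comparisons share the DMI libraries, so their members' values are not independent of each other.

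**Figure D3:**
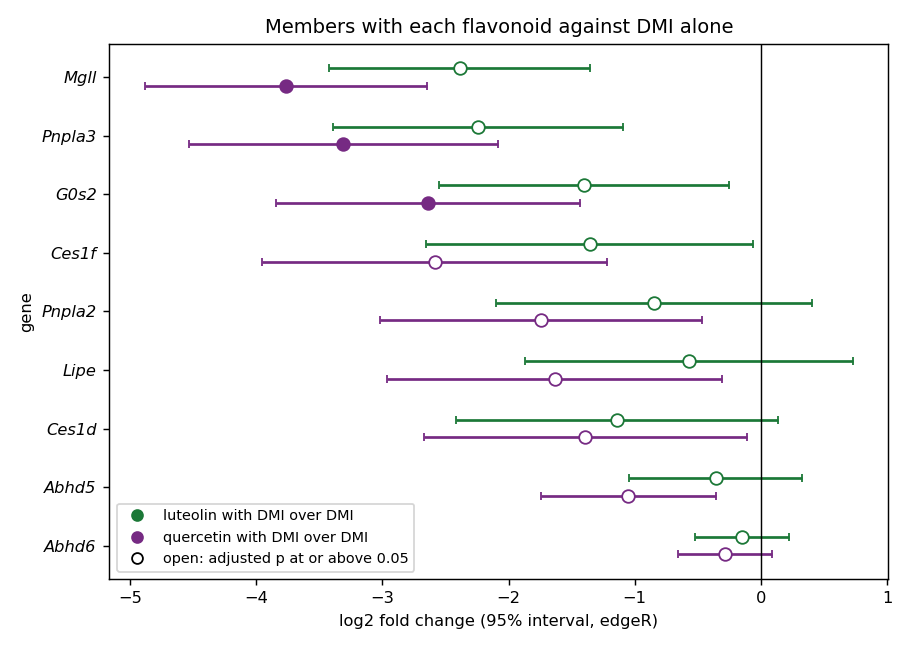
Log2 fold change of each member for luteolin and for quercetin over DMI, with 95% intervals derived from the F statistic of edgeR's quasi-likelihood test. Filled points have an adjusted p under 0.05. Mgll, Pnpla3 and G0s2 with quercetin are filled, at -3.76, -3.31 and -2.64, and all 18 points lie below 0.

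Set directly against each other, luteolin over quercetin gave positive log2 differences for 9 of 9 members, none past the threshold by edgeR, where 0% of all genes passed. The direct comparison covered 1 pair of compounds. Unadjusted p by edgeR was under 0.05 for 3 of 9 members, Mgll, G0s2 and Abhd5, and for 8.93% of all genes. DESeq2 called 0 members and 0.0135% of all genes. The log2 difference was 1.38 for Mgll (95% interval 0.30 to 2.46, adjusted p = 0.541 by edgeR) and 1.24 for G0s2 (0.08 to 2.40, adjusted p = 0.550). It was 0.69 for Abhd5 (0.0023 to 1.38, adjusted p = 0.555) and 0.90 for Pnpla2 (-0.36 to 2.15, adjusted p = 0.609). Luteolin and quercetin libraries did not overlap for 2 of 9 members, Mgll and G0s2, against 10.3% of all genes, 5.2% being higher with luteolin. The narrowest interval was that of Abhd6, -0.24 to 0.51, and Ces1d at 0.25 (-1.01 to 1.52) was the next nearest to 0. Without the 3 induced libraries numbered 3, 7 members passed, Mgll at 1.53 (adjusted p = 0.00103) and G0s2 at 1.13 (adjusted p = 0.000436) among them, against 13.8% of all genes.

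Because member levels and adipocyte markers moved together, each member was also expressed per 1000 CPM of the 8 adipocyte markers in the 9 induced libraries. On this scale Mgll was 1.58, 2.30 and 2.40 with luteolin, 1.39, 1.00 and 4.81 with quercetin, and 6.02, 5.58 and 5.39 with DMI. All 6 flavonoid values were below the 3 DMI values, the closest being quercetin replicate 3, and the mean was 2.70-fold lower with luteolin and 2.36-fold lower with quercetin. Pnpla3 followed, at 1.64, 1.51 and 1.56 with luteolin, 1.60, 0.954 and 3.06 with quercetin, and 4.21, 3.81 and 4.005 with DMI, or 2.55-fold and 2.14-fold lower. G0s2 was 16.4, 17.2 and 22.9 with luteolin, 12.9, 14.01 and 25.1 with quercetin, and 26.7, 24.3 and 23.7 with DMI, where luteolin lay below DMI and quercetin overlapped it through replicate 3.

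Pnpla2 per marker level overlapped across the 3 groups, at 154 to 178 with luteolin, 165 to 204 with quercetin and 151 to 170.3 with DMI. Lipe lay the other way from Mgll, at 91.9 to 103 with luteolin, 86.8 to 89.6 with quercetin and 73.2 to 81.0 with DMI, 1.26-fold and 1.15-fold above DMI without overlap. Ces1d was higher with quercetin, at 13.97 to 17.4 against 10.2 to 11.8 with DMI, and overlapped DMI with luteolin at 8.46 to 10.3. The other 3 members, Ces1f, Abhd5 and Abhd6, overlapped DMI with either flavonoid. For luteolin this leaves 3 members lower and 1 higher without overlap, where 0.72% of all genes were lower and 1.63% higher, and for quercetin 2 lower and 2 higher, where 0.498% were lower and 14.4% higher. The scale depends on which markers make it up: Fabp4 and Cidec averaged 1560.5 and 738 CPM with luteolin, 892 and 338 CPM with quercetin, and 2565 and 2080 CPM with DMI.

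**Figure D4:**
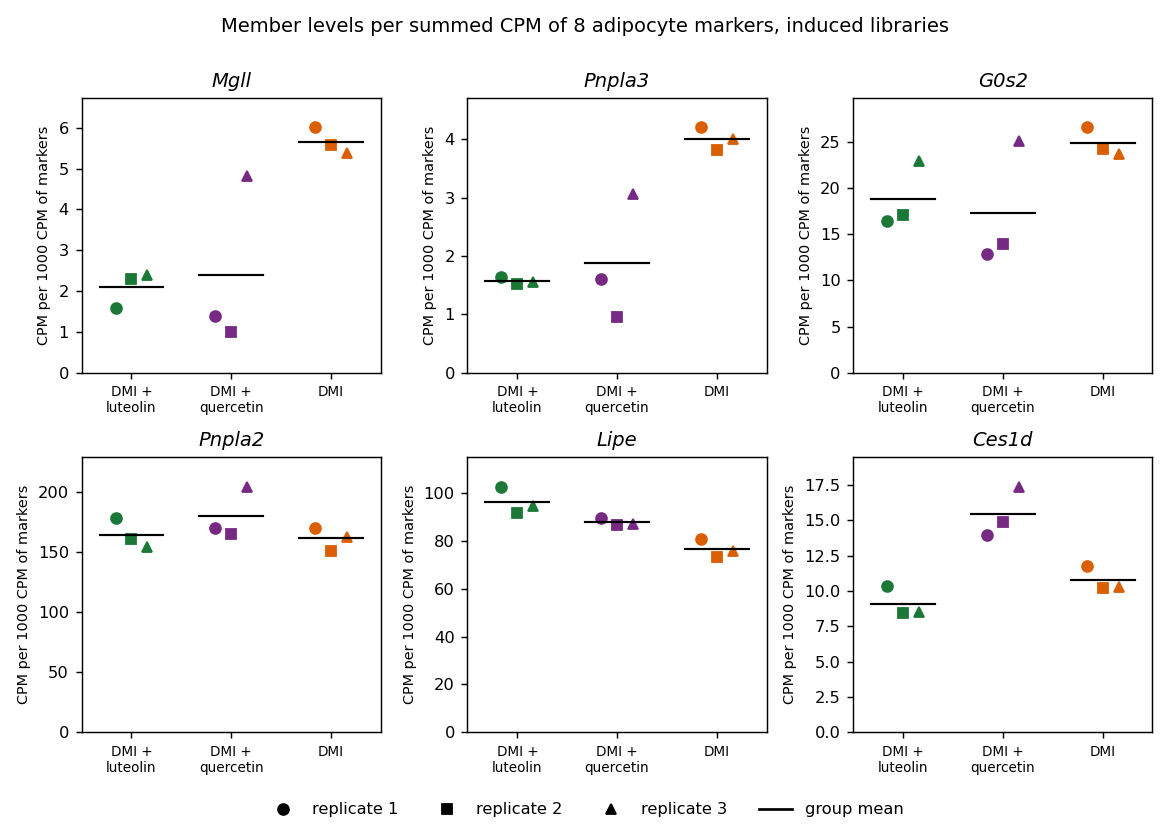
CPM of 6 members per 1000 CPM of 8 summed adipocyte markers in the 9 induced libraries, on linear axes from 0, with luteolin, quercetin and DMI from left to right; symbols are replicates and the line is the group mean. Mgll and Pnpla3 are lower with either flavonoid than with DMI, Pnpla2 overlaps, and Lipe is higher.

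The members' shapes across the 9 induced libraries were also compared with those of 10151 protein-coding genes, as the root mean square (RMS) difference of log2 CPM after each gene was centred on its own mean. These libraries share the low replicate 3 and the group differences, so likeness is a description only. Pnpla2, whose own spread was an SD of 1.16, was closest to Aqp7, a glycerol channel (0.105), Glul, glutamine synthetase (0.106), and Rarres2, the adipokine chemerin (0.138). Lipe was closest to Mcam (0.0877), Fabp4 (0.114) and Adipoq, the adipokine adiponectin (0.124). G0s2 (SD 1.28) was closest to Mrap (0.166), Dgat2, a triacylglycerol synthase (0.182), and Slc13a4 (0.183), and Ces1f to Slc13a4 (0.183), G0s2 (0.186) and Dgat2 (0.190).

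Mgll and Pnpla3 had the widest swings and the largest RMS differences from their closest genes. The RMS difference is not scaled by a gene's own SD, so it tends to be larger for wide swings and smaller for flat genes. It therefore does not rank the members by how well they were matched. Mgll (SD 1.59) was closest to Pnpla3 itself (0.301), then Klb (0.349) and Slc36a2 (0.358). Pnpla3 (SD 1.502) was closest to Pck1, which encodes a glyceroneogenic enzyme (0.264), Klf15, a zinc finger factor (0.286), and Slc2a4, the insulin-responsive glucose transporter (0.286). Ces1d (SD 1.09) was closest to Bcat2 (0.253), Ltc4s (0.259) and Pnpla2 (0.267). The flattest members had the smallest RMS differences, Abhd5 (SD 0.616) with Clybl (0.0518), Gypc (0.0731) and Xrcc3 (0.0776), and Abhd6 (SD 0.214) with Adamts12 (0.0678), C2cd3 (0.0802) and Zfp407 (0.0836).

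Other genes of the pathway were counted by list. With DMI against untreated cells, 5 of 18 other neutral lipid hydrolases rose and 1 fell, where 27.1% of all genes changed and 14.7% rose. Lpl, lipoprotein lipase, averaged 7209 CPM with DMI and 685 CPM in untreated cells (10.5-fold, adjusted p = 0.000211), and Nceh1 fell by 2.47-fold. Of droplet proteins that hold or release lipolysis factors, 5 of 8 rose, Abhd15 by 79.1-fold and Plin4 by 15.6-fold among them, and of genes handling fatty acids and glycerol 7 of 8 rose, Acsl1, which activates fatty acids, by 185-fold. The signalling that stimulates lipolysis gave 5 rises and 1 fall among 16, with Prkar2b, a protein kinase A subunit, up 4.02-fold and Adcy7, an adenylyl cyclase, down 5.09-fold. The signalling that inhibits it gave 7 rises and 0 falls among 11, including Hcar1, the lactate receptor, at 53.7 CPM with DMI against 0.0604 CPM in untreated cells. Regulators of lipase genes gave 9 rises, Cebpa by 21.3-fold, and 1 fall among 13. The 6 changed hydrolases of 18 and the 6 changed stimulatory genes of 16 are shares not far above the 27.1% of all genes. Medians of log2 fold changes were 0.02, 2.64, 4.93, 0.47, 0.79 and 1.55 in the order of the lists, against -0.04 over all genes.

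Luteolin against DMI changed 0 genes in each of these 6 lists by edgeR, with medians from -0.72 for fatty acid and glycerol handling to 0.01 for other hydrolases. Without the 3 induced libraries numbered 3 the same lists gave 3 to 9 calls, where all genes gave 10.4% instead of 0.0202%. Quercetin against DMI lowered 3 of 11 inhibitory signalling genes, which were Hcar1 (4.24 CPM with quercetin, against 53.7 CPM with DMI), Hcar2 and Pde3b, the insulin-activated phosphodiesterase. Hcar2, a receptor that restrains lipolysis, averaged 4.44 CPM with quercetin and 24.2 CPM with DMI (5.42-fold, adjusted p = 0.0484), and Pde3b 9.74 CPM with quercetin and 51.1 CPM with DMI (5.25-fold, adjusted p = 0.0484). Of 16 stimulatory genes 1 fell, Adrb1, a beta-adrenergic receptor, at 0.181 CPM with quercetin and 1.51 CPM with DMI (adjusted p = 0.0469). Among 13 regulators Klf15 fell to 5.11 CPM with quercetin, against 43.4 CPM with DMI (8.44-fold, adjusted p = 0.0484), and Snai1, known as a repressor of Pnpla2 transcription, rose 1.78-fold to 52.3 CPM with quercetin, against 29.4 CPM with DMI (adjusted p = 0.0469). None of the 18 other hydrolases, 8 droplet genes or 8 handling genes passed, Lpl giving -1.20 (adjusted p = 0.105), Cidec -2.62 (adjusted p = 0.106) and Acsl1 -2.04 (adjusted p = 0.0827). Under library totals alone 1 inhibitory gene, 0 stimulatory genes and 0 regulators passed, and without DMI replicate 3 these counts were 8, 7 and 10, with 17.4% of all genes called instead of 1.01%. Without DMI replicate 1 each was 0, as was the count over all genes. The direct comparison of luteolin with quercetin changed 0 genes in each list.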

How the data were processed

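The submitters sequenced 12 libraries made with the NEBNext Ultra kit, which does not mark strand, and titles gave groups and replicate numbers. One treatment text is used for all samples, so only title and treatment label mark the untreated group. Per the submitters' processing notes, the authors made raw counts per gene with featureCounts 1.5.0-p3 and also used CASAVA 1.8.2. The aligner and the strand setting are not given in the sources used here. FPKM values deposited by the authors were used for levels per length. The authors' deposited table also holds log2 fold changes and p-values of their own comparisons, in which 2 members pass 0.05 for luteolin against DMI (Mgll and Pnpla3), 3 for quercetin against DMI (Mgll, Pnpla3 and G0s2) and 0 between the compounds. The notes name mm9, yet 98.3% of gene positions, those of all 9 members included, equal GENCODE M21, and GRCm38 is therefore used for coordinates.

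After filterByExpr and TMM scaling, counts were fitted by the quasi-likelihood method of edgeR 4.0.16 (R 4.3.3). All 12 libraries entered with a term for each of the 4 groups and a common spread. Adjustment was by Benjamini-Hochberg over the 14855 genes in each of 7 comparisons, at a threshold of 0.05. CPM use TMM-adjusted totals. Chi-square per gene between replicates was at least 2.78, so none were duplicates within sampling noise. Named genes are all 9 members, up to 4 changed genes or else up to 2 abundant genes per list and comparison, and the 3 closest genes at 5 CPM or more per member, with fewer printed where counts sufficed. The members, lists and tests were chosen with earlier results of these data known.

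Same-numbered luteolin and DMI libraries deviated together (r = 0.261, 0.337 and 0.590, all over 0.1), so the number was taken as a pairing there. This rests on the same data, since the labels do not say what a number marks. Within a group of 3 libraries the deviations from the group mean cancel out, so these r values are not independent of each other. A replicate 3 that is low in both groups can by itself raise r for the other numbers. The r values therefore do not show that each number marks a pair. Reads of overlapping genes cannot be separated: Lamb3 on the other strand of G0s2 had 590 counts in all libraries (G0s2 14823), Gm26588 antisense to Mgll 169 (Mgll 2738) and 4732471J01Rik antisense to Lipe 541 (Lipe 60339). Alternatives changed the scaling (RLE, or no TMM), the filter (none, 1 CPM in 3 libraries, or coding genes), the tool (DESeq2 1.42.0, or voom in limma 3.58.1), the libraries fitted (the groups compared, each left out, or the 3 induced libraries numbered 3 left out) and the replicate block.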

Additional observations from a re-analysis of the deposited data

How the results depend on the processing

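Each count of members is followed by the share of all genes called in the same fit. Over untreated cells, leaving out each library gave 8 to 8 members for DMI, 7 to 8 for luteolin and 5 to 7 for quercetin. DMI against untreated (8, 27.1%) gave 9, with Abhd6 added, without the 3 induced libraries numbered 3 (52.8%). Quercetin against untreated (7, 9.45%) gave 3 by voom (8.26%), and 8, with Abhd5 added, with no low-count filter (8.12%) and without the 3 induced libraries numbered 3 (40.4%). The counts against DMI moved more, and the shares of all genes moved with them. For luteolin against DMI (0, 0.0202%), the count was 6 with no filter (1.25%), 1 by DESeq2 (0.323%), 2 with the replicate block (0.168%), 7 with that block and only the groups compared (6.58%), and 8 without the libraries numbered 3 (10.4%). Leaving out each library gave 0 to 3, the 3 (Mgll, Pnpla3, G0s2) without DMI replicate 3 (1.7%). For quercetin against DMI (3, 1.01%), the count was 8 with no filter (5.98%), 5 by DESeq2 (6.75%), 0 by voom (0.00673%), 8 with the block (9.39%), 0 with only the groups compared (0%), 8 with both (5%) and 8 without the libraries numbered 3 (33.4%). Leaving out each gave 0 to 8, the 8 without DMI replicate 3 (17.4%), and G0s2 alone was lost under library totals, 1 CPM in 3 libraries and protein-coding genes only (adjusted p = 0.0531, 0.0516 and 0.0529). For the pooled flavonoids (2, 0.653%), the count was 8 with no filter (3.96%), 3 by DESeq2 (3.43%), 0 by voom (0.0269%), 7 with the block (4.87%), 1 with only the groups compared (0.0825%), 8 with both (5.4%) and 8 without the libraries numbered 3 (26.2%). Single libraries gave 0 to 8, with 0 without DMI replicate 1, DMI replicate 2 or quercetin replicate 2 and 8 without DMI replicate 3 (13.1%). For luteolin against quercetin (0, 0%), the count was 7 with no filter (1.55%), 1 (G0s2) with the block and only the groups compared (0.255%), 7 without the libraries numbered 3 (13.8%), and 0 to 0 over single libraries. The cause was not tested. The block was taken as a pairing only for luteolin and DMI, a choice that rests on these data. Quercetin and DMI libraries correlated at 0.0682, 0.279 and 0.335, with replicate 1 under the 0.1 used. These values do not show that the quercetin libraries were unpaired, and the luteolin values do not show that those libraries were paired.

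Of 1449 member values under alternatives 3 reversed, Abhd6 for quercetin against untreated (0.05; -0.043 to 0.20 over single libraries, lowest without quercetin replicate 1) and for luteolin against quercetin (0.13; -0.019 to 0.23, lowest without quercetin replicate 2), and Ces1d for luteolin against quercetin (0.25; -0.18 to 0.60, lowest without quercetin replicate 3). Of the log2 ratios to Pnpla2, Mgll for luteolin against untreated (-0.18) was 0.040 at a prior count of 0.5 and -0.34 to 0.067 over single libraries, Abhd5 for luteolin against quercetin (-0.35) ran from -0.62 to 0.13, and Mgll for the same (0.22) from -0.17 to 0.81.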
